A study of Mus musculus with 24 samples.

Results

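The cholesterol and fatty acid synthesis genes are 32 genes of sterol and lipid synthesis, sterol sensing and sterol efflux, chosen by name and followed here across mouse lungs exposed to carbon nanomaterials. Of the 32, 31 were named on the array, among 20738 named genes in all, and all 31 passed the filter on low values that left 16519 genes for testing. Each gene was read from the spot with the highest mean over the 24 samples. Msmo1 was found under its older symbol Sc4mol, and Acat2 was not analysed here. The genes fall into a mevalonate arm (6 of 7 measured), a sterol arm (11), a sterol sensing group (5), a sterol transport and efflux group (3) and a fatty acid group (6).

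The lungs came from female C57BL/6 mice of 7 to 8 weeks. They had received 10 µg of a material in 50 µl of phosphate-buffered saline by oropharyngeal aspiration, once a day for 4 days, and were sampled 24 h after the last dose. The exposed groups were rCNT (3 samples), tCNT (3), SES (3), BayTubes (4), Graphite (4) and fullerene (4), and Ctrl (3) received 50 µl of saline alone. The first 2 are rigid and tangled carbon nanotubes. Each sample was RNA pooled from 2 mice, so the spread between samples is a spread between pools of whole lung. The 24 samples lay on 12 arrays of 2 dyes, each dye a sample of its own, on 3 slides. All values are the authors' log2 signals, and all changes are log2 differences. A spot's signal depends on its probe, so levels are compared between samples and not between genes.

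Cells make cholesterol from acetyl-CoA through mevalonate, farnesyl diphosphate, squalene and lanosterol. When sterols run low in the endoplasmic reticulum, the escort protein SCAP carries the membrane-bound SREBP transcription factors to the Golgi, where they are cut free, and when sterols are plentiful the INSIG proteins hold SCAP back. SREBP-2 mainly drives the sterol genes and SREBP-1 mainly the fatty acid genes, while the liver X receptors, which sense oxysterols, drive the efflux transporters ABCA1 and ABCG1. In the lung, alveolar type 2 cells use these lipids for surfactant, and alveolar macrophages clear surfactant lipid and export its cholesterol.

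The tissue label held against its markers. All 10 alveolar type 2 markers, among them the surfactant protein gene Sftpc at a mean log2 signal of 17.58, and the club cell gene Scgb1a1 at 17.44, lay above the 40th percentile in all 24 samples. Heart muscle markers were present too, with Myh6 at a mean of 12.17. Within the fitted groups, residuals over all genes had their largest standard deviations, 0.495 and 0.43, in rCNT 4 and Graphite 16, which share an array, and over the 31 genes that of rCNT 4 was 0.45. Cyp51 read 5.63 in rCNT 4 and 5.62 in Graphite 16, against 6.55 to 8.78 in the other 22 samples, so results for rCNT are also given without that array.

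After rCNT exposure 2 of 6 genes of the mevalonate arm and 5 of 11 of the sterol arm rose against Ctrl, and 2 of 3 transport and efflux genes fell. Of the 31 genes in all, 8 rose (25.8%) and 4 fell (12.9%; limma, adjusted p under 0.05), where 21.8% of all genes tested were called, 12.4% higher and 9.41% lower. In whole lung, fewer cells of a type and less RNA per cell cannot be told apart. The median change was 0.49 over the mevalonate arm and 0.38 over the sterol arm, against -0.02 over all genes. It was -0.13 over the sensing genes, -0.20 over the fatty acid genes and -0.59 over the transport and efflux genes. The rCNT samples differed among themselves in the map of deviations from the Ctrl mean. Averaged over its genes, the sterol arm lay 0.03 above the Ctrl mean in rCNT 4, against 0.46 in rCNT 5 and 0.43 in rCNT 6. Cyp51 weighs heavily on these averages, with deviations of -1.94 in rCNT 4, 1.22 in rCNT 5 and 0.17 in rCNT 6. Among the rCNT samples, Fdft1, Sqle, Lss, Msmo1, Hsd17b7, Ebp and Sc5d were also lowest in rCNT 4. Nsdhl and Dhcr7 were highest there, and Tm7sf2 lay between the other rCNT samples. The low average of rCNT 4 therefore rests on Cyp51 only in part. The mevalonate arm lay 0.40, 0.40 and 0.34 above the Ctrl mean.

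**Figure D1:**
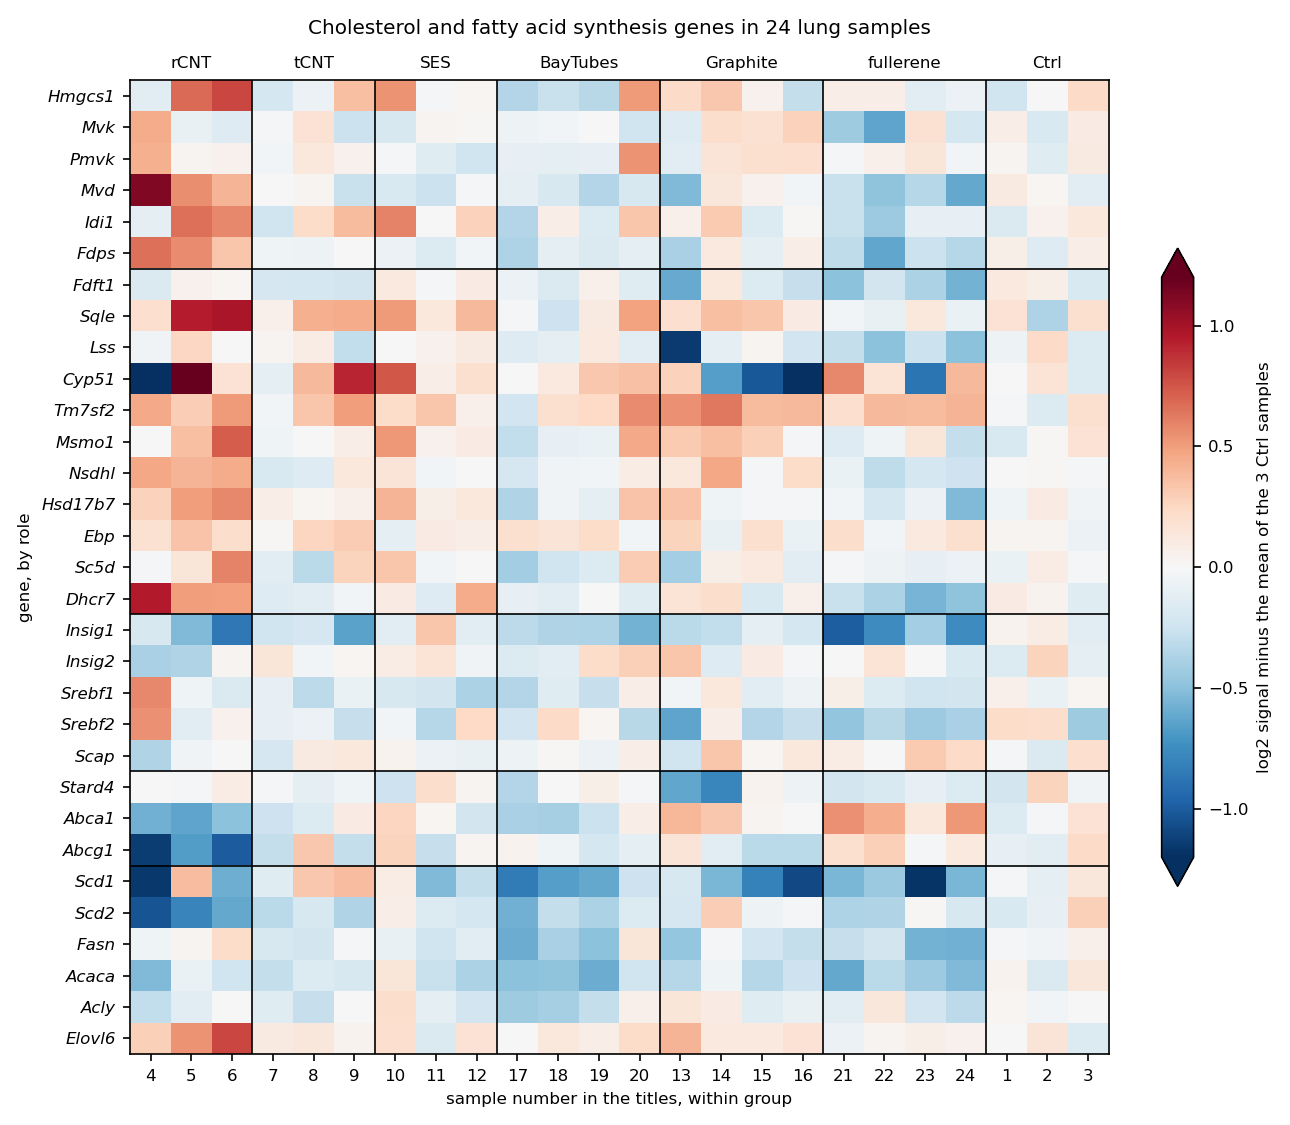
Log2 signal of 31 genes (rows, by role) in 24 lung samples (columns, by group), as the difference from the mean of the 3 Ctrl samples. Colours stop at 1.2 in either direction. In the rCNT columns Mvd, Fdps, Sqle, Nsdhl and Dhcr7 are above the Ctrl mean in all 3 samples, and Abca1, Abcg1 and Scd2 are below it.

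In the mevalonate arm, all 6 genes had a positive change after rCNT and 2 passed the threshold. Mvd, mevalonate diphosphate decarboxylase, gave 10.28, 9.72 and 9.57 in rCNT lungs, against 9.27, 9.19 and 9.04 in Ctrl lungs. All rCNT samples lay above all Ctrl samples, with rCNT 4 the highest. The fitted change was 0.60 ± 0.18 (SE; adjusted p = 0.0219). Fdps, the synthase of farnesyl diphosphate from which sterols and isoprenoids branch, gave 13.11, 13.02 and 12.78 in rCNT lungs, against 12.53, 12.29 and 12.53 in Ctrl lungs. Here too the groups did not overlap, and the change was 0.49 ± 0.13 (SE; adjusted p = 0.0083).

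Hmgcs1, which makes HMG-CoA, and Idi1, the isopentenyl diphosphate isomerase, followed another pattern among the rCNT samples. Hmgcs1 gave 12.39, 13.20 and 13.31 in rCNT lungs, against 12.28, 12.52 and 12.75 in Ctrl lungs, and its change of 0.50 did not pass (adjusted p = 0.114). Idi1 gave 11.35, 12.13 and 12.05 in rCNT lungs, against 11.29, 11.52 and 11.59 in Ctrl lungs, with a change of 0.48 ± 0.19 (SE; adjusted p = 0.0792). In both genes rCNT 5 and rCNT 6 lay above all Ctrl samples while rCNT 4 lay among them. Without the array of rCNT 4, the Hmgcs1 change was 0.73 (adjusted p = 0.0178) and the Idi1 change 0.67 (adjusted p = 0.021). The kinases Mvk and Pmvk had changes of 0.08 (95% interval -0.25 to 0.41) and 0.15 (95% interval -0.15 to 0.46), and neither passed. These intervals are not adjusted for the number of genes.

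In the sterol arm, 5 of 11 genes rose after rCNT, none fell, and 9 had a positive change. Sqle, squalene epoxidase, an oxygen-dependent step that limits the rate of the arm, gave 11.19, 11.94 and 11.97 in rCNT lungs, against 11.17, 10.62 and 11.19 in Ctrl lungs. The lowest rCNT sample, rCNT 4, stood level with the highest Ctrl sample at 2 decimals, and Ctrl 2 was far below the other Ctrl samples. The change was 0.75 ± 0.18 (SE; adjusted p = 0.00575), the largest increase among the 31 genes in this comparison. Dhcr7, which makes cholesterol in the last step of one branch, gave 9.09, 8.65 and 8.63 in rCNT lungs, against 8.24, 8.19 and 8.00 in Ctrl lungs. Its groups were well apart, and the change was 0.61 ± 0.15 (SE; adjusted p = 0.00524).

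The other 3 that rose act between lanosterol and the last steps. Hsd17b7, a sterol ketoreductase, gave 8.31, 8.54 and 8.61 in rCNT lungs, against 7.98, 8.13 and 7.99 in Ctrl lungs, a change of 0.50 ± 0.16 (SE; adjusted p = 0.0274). A second spot named for Hsd17b7 gave a smaller change of 0.32 ± 0.21 (SE). Nsdhl, a sterol dehydrogenase, gave 9.44, 9.38 and 9.42 in rCNT lungs, against 8.98, 8.99 and 8.96 in Ctrl lungs, the tightest pair of groups in the arm. Its change was 0.38 ± 0.12 (SE; adjusted p = 0.0248), but a second spot named for Nsdhl gave only 0.08 ± 0.12 (SE). Tm7sf2, a sterol reductase, gave 10.51, 10.35 and 10.57 in rCNT lungs, against 10.04, 9.89 and 10.25 in Ctrl lungs, a change of 0.46 ± 0.14 (SE; adjusted p = 0.0284), and its second spot gave 0.37 ± 0.15 (SE). In all 3 genes the groups did not overlap.

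The other 6 genes of the arm did not pass. Fdft1, squalene synthase, and Lss, lanosterol synthase, had changes of -0.13 (95% interval -0.43 to 0.17) and -0.09 (95% interval -0.52 to 0.33) after rCNT. Msmo1, the sterol methyl oxidase, gave 11.79, 12.16 and 12.53 in rCNT lungs, against 11.62, 11.81 and 11.97 in Ctrl lungs, and Ebp, the sterol isomerase, gave 13.12, 13.27 and 13.15 in rCNT lungs, against 12.97, 12.97 and 12.86 in Ctrl lungs. Their changes, 0.42 and 0.27, missed the threshold (adjusted p = 0.0984 and 0.0862), although every rCNT sample of Ebp lay above every Ctrl sample. Sc5d, the sterol desaturase, had a change of 0.15. Cyp51, the lanosterol demethylase, gave 5.63, 8.78 and 7.74 in rCNT lungs, against 7.57, 7.72 and 7.40 in Ctrl lungs, a spread of samples too wide for its change of 0.01 ± 0.51 (SE) to carry a direction.

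Without the array of rCNT 4 and Graphite 16, 12 genes were again called after rCNT, 9 of them shared with the full set. Mvd, Tm7sf2 and Nsdhl then missed the threshold, with changes of 0.37 (adjusted p = 0.112), 0.45 (adjusted p = 0.0621) and 0.34 (adjusted p = 0.076), while Hmgcs1, Idi1 and Msmo1 passed it, Msmo1 with 0.58 (adjusted p = 0.0274). In 6 fits that each left out 1 rCNT or Ctrl sample, Sqle, Dhcr7, Abca1, Abcg1, Scd2 and Elovl6 were called every time. The calls of Tm7sf2, Nsdhl, Hsd17b7 and Insig1 were each lost in 4 of the 6 fits, and that of Mvd in 3. The count was 7 without Ctrl 2, the sample lowest for Sqle, and Fdps was then among those lost. When array was a fixed term, so that only differences within an array count, no gene of the 31 was called by limma, against 6.5% of all genes, and in a fit of rCNT and Ctrl alone 1 was, Abcg1 (change -0.83, adjusted p = 0.0411).

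To show the proximal promoters of these genes, RefSeq windows (build GRCm38.p6) from 250 bases before to 50 bases after a start site were searched for 3 motifs on both strands. Of the 32 genes, 25 had a window. Those without were Sqle and Fdps, which rose after rCNT, Abcg1 and Scd2, which fell, and Fdft1, Stard4 and Scd1, not called. The CCAAT box, CCAAT, which binds the factor NF-Y that works beside SREBP, was in a window of 20 of 25 genes (80%), against 41.1% of 27025 genes with a window. The GC box, GGGCGG, was in 21 of 25 (84%), against 38.2% of all. The sterol response element letters TCACNCCAC were in 1 of 25, Hmgcs1, against 1.44% of all. Of the genes that rose after rCNT and had a window, 5 of 6 held a CCAAT box, as did 1 of 2 that fell and 14 of 16 that were not called. 6 windows are printed because they carry the sterol response element match (Hmgcs1), belong to sterol genes that rose (Mvd, Nsdhl, Hsd17b7) or to genes that fell (Insig1, Abca1). Each runs 5′ to 3′ on its gene's strand, and capitals mark CCAAT on either strand and, in Hmgcs1, also the sterol response element at -137. Their positions are chr13:119690101-119690400 on the plus strand for Hmgcs1, chr8:122443373-122443672 on the minus strand for Mvd, chrX:72918271-72918570 on the plus strand for Nsdhl, chr1:169969156-169969455 on the minus strand for Hsd17b7, chr5:28071162-28071461 on the plus strand for Insig1 and chr4:53159846-53160145 on the minus strand for Abca1.
Hmgcs1: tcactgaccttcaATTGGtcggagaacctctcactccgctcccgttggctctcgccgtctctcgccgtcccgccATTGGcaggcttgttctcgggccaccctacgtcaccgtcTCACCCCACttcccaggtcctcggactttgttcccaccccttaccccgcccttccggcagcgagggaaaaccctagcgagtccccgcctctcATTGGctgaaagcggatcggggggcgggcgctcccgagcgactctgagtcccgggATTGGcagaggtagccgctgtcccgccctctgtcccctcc
Mvd: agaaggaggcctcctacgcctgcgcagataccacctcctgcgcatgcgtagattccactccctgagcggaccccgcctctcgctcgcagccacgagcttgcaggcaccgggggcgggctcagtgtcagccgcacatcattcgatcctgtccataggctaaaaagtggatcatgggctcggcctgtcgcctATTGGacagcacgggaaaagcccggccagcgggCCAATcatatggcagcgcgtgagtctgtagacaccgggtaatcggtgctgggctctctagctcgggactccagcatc
Nsdhl: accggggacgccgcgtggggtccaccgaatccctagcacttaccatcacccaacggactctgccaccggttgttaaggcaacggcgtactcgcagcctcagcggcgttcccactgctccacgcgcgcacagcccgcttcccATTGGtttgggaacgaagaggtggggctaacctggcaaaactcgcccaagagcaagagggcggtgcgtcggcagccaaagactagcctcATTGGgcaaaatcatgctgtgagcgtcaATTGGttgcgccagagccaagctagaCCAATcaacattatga
Hsd17b7: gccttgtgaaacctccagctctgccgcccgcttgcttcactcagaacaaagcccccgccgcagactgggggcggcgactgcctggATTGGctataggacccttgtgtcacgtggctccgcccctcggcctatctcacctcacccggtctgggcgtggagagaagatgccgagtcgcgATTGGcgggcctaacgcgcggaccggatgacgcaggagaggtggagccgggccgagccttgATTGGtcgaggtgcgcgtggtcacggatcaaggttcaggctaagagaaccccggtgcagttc
Insig1: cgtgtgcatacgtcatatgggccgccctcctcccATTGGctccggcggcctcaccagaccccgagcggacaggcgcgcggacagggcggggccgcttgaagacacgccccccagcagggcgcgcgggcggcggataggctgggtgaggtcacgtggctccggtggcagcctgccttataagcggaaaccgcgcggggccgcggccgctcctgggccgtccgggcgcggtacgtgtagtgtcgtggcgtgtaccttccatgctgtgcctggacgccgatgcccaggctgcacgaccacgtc
Abca1: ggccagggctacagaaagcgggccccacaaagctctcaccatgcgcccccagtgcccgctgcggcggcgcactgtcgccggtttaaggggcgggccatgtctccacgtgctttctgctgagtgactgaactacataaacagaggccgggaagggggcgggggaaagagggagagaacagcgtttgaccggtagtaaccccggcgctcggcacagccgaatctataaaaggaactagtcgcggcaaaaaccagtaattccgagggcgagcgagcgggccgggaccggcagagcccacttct
The Abca1 window held none of the CCAAT letters, and the Nsdhl and Hmgcs1 windows held 4 matches each. A match of letters is a description of the window, not a site shown to be bound.

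Among the sterol sensing genes, Insig1 fell after rCNT while the genes of the escort and of the factors themselves did not pass. Insig1, which retains SCAP and is itself an SREBP target, gave 7.93, 7.59 and 7.26 in rCNT lungs, against 8.16, 8.21 and 7.99 in Ctrl lungs. All rCNT samples lay below all Ctrl samples, with rCNT 4 close to them. The change was -0.50 ± 0.16 (SE; adjusted p = 0.032), in the opposite direction to the sterol enzymes that rose in the same lungs. The call was lost in 4 of 6 fits that left out 1 rCNT or Ctrl sample, with changes between -0.65 and -0.34. Insig2, its relative, had a change of -0.27 (adjusted p = 0.124). Srebf1 and Srebf2, which encode the SREBP factors, had changes of 0.06 (95% interval -0.28 to 0.40) and 0.11 (95% interval -0.33 to 0.54), and Scap one of -0.13. The spots of Srebf2 did not match: its second, dimmer spot gave 0.94 ± 0.27 (SE) after rCNT.

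The efflux transporters fell after rCNT. Abca1, which hands cholesterol to lipid-poor apolipoprotein, gave 10.04, 9.98 and 10.13 in rCNT lungs, against 10.45, 10.61 and 10.79 in Ctrl lungs. Abcg1, which exports cholesterol to lipoprotein particles and is needed for surfactant clearance by alveolar macrophages, gave 10.94, 11.42 and 11.09 in rCNT lungs, against 11.98, 11.95 and 12.31 in Ctrl lungs. In both genes every rCNT sample lay below every Ctrl sample. The changes were -0.59 ± 0.14 (SE; adjusted p = 0.0052) for Abca1 and -0.79 ± 0.16 (SE; adjusted p = 0.00184) for Abcg1, the largest decrease among the 31 genes. Stard4, a carrier of sterols between membranes, had a change of -0.04 (95% interval -0.38 to 0.31). Among 9 alveolar macrophage markers, 3 rose and 1 fell in the same lungs, where 21.8% of all genes were called. Their mean log2 signal ran from 11.97 to 12.40 in rCNT lungs, against 12.16 to 12.28 in Ctrl lungs.

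In the fatty acid group, the elongase and one desaturase moved in opposite directions after rCNT. Elovl6, which elongates palmitate, gave 9.20, 9.45 and 9.71 in rCNT lungs, against 8.92, 9.07 and 8.75 in Ctrl lungs, a rise of 0.63 ± 0.14 (SE; adjusted p = 0.00264). Scd2, a stearoyl-CoA desaturase, gave 13.71, 13.94 and 14.12 in rCNT lungs, against 14.56, 14.64 and 15.03 in Ctrl lungs, a fall with a change of -0.77 ± 0.14 (SE; adjusted p = 0.000469), the smallest adjusted p of the 31 genes in this comparison. Neither pair of groups overlapped. Scd1, the related desaturase, gave 13.83, 15.36 and 14.41 in rCNT lungs, against 14.96, 14.88 and 15.12 in Ctrl lungs, with rCNT 5 above and the other 2 below Ctrl, and its change of -0.29 ± 0.27 (SE) did not pass. Fasn, fatty acid synthase, had a change of 0.01 (95% interval -0.30 to 0.32), Acaca, acetyl-CoA carboxylase, one of -0.24, and Acly, ATP citrate lyase, one of -0.16. Among 10 alveolar type 2 markers in the same lungs, 1 rose and 3 fell, where 21.8% of all genes were called. Their mean signal was 14.32 to 14.59 in rCNT lungs, against 14.56 to 14.82 in Ctrl lungs.

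**Figure D2:**
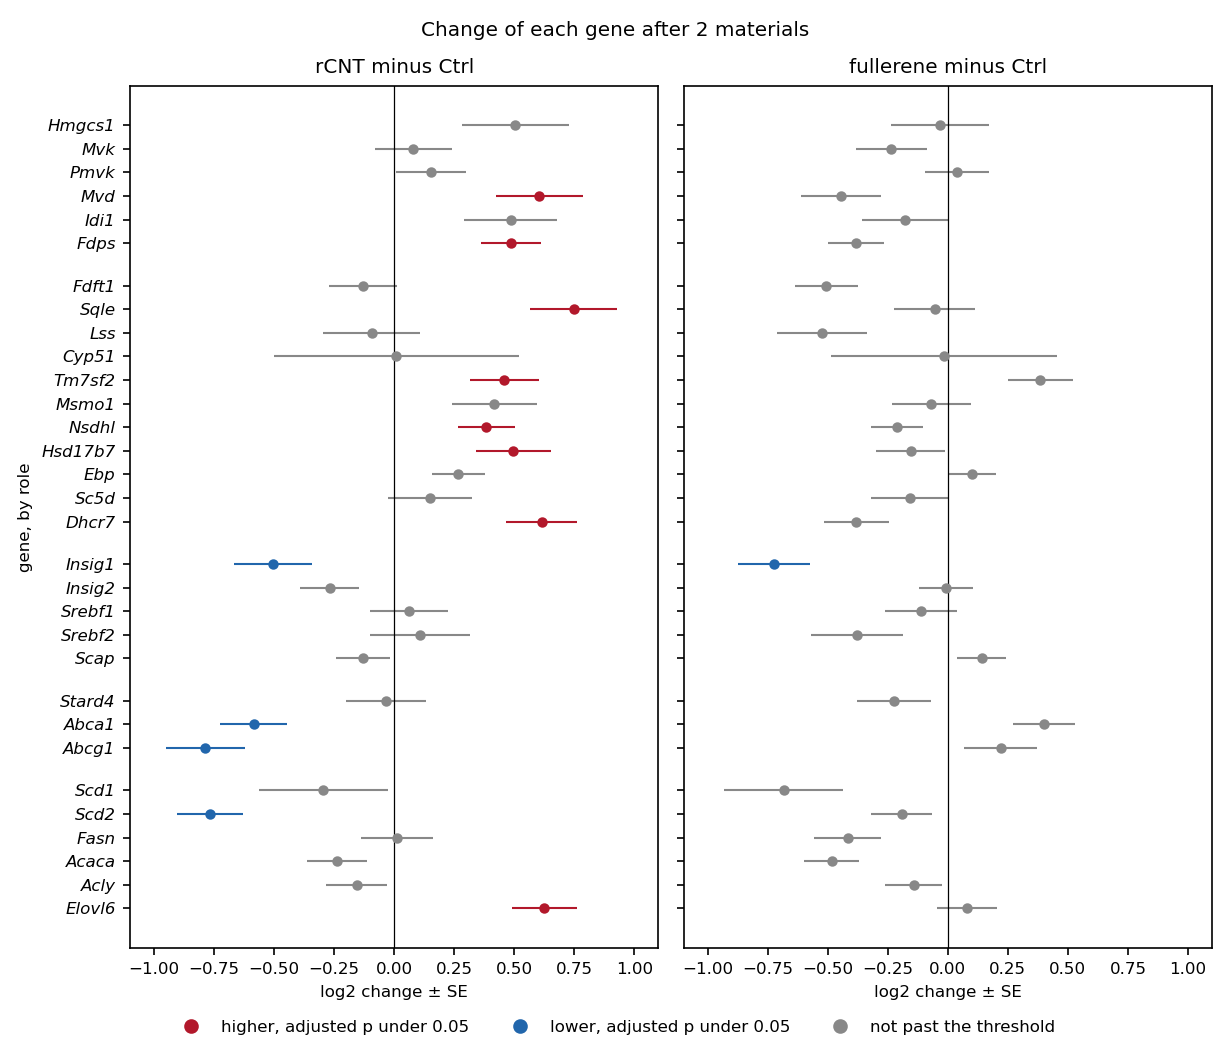
Fitted log2 change with its standard error for each of 31 genes, by role, in rCNT minus Ctrl (left) and fullerene minus Ctrl (right). Red and blue points passed the threshold of 0.05 on the adjusted p. In the left panel Sqle reaches 0.75 and Abcg1 -0.79, and in the right panel Insig1 at -0.72 is the one gene past the threshold.

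The other 5 materials changed few of the 31 genes against the same 3 Ctrl samples, which all 6 comparisons share. After fullerene, 1 gene fell and none rose, where 0.26% of all genes were called (0.109% lower and 0.151% higher). Insig1 gave 7.13, 7.37, 7.71 and 7.37 in fullerene lungs, against 8.16, 8.21 and 7.99 in Ctrl lungs, a change of -0.72 ± 0.15 (SE; adjusted p = 0.0471). All 4 fullerene samples lay below all Ctrl samples, but the call rested on every sample: leaving out any 1 of the 7 ended it, with changes between -0.82 and -0.64.

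Most of the 31 genes read lower in fullerene lungs, and apart from Insig1 none passed. Of the 31 genes, 24 had a negative change, with a median of -0.16, and 10 had every fullerene sample below every Ctrl sample, against 5.44% of all genes. That is 32.3% of the 31, and 1 gene, Tm7sf2, had every fullerene sample above, against 11.2% of all genes. The 10 were Mvd, Fdps, Fdft1, Lss, Nsdhl, Dhcr7, Insig1, Scd1, Fasn and Acaca. Slide 3, with fullerene 21 and fullerene 24, held no Ctrl sample. Within slide 1 (fullerene 23) the changes of all 10 were negative. Within slide 2 (fullerene 22), Mvd (0.24), Fdft1 (0.61), Lss (0.68), Nsdhl (0.05) and Fasn (0.195) were positive. Fdps, Dhcr7, Insig1, Scd1 and Acaca were negative there, from -0.89 to -0.135. Each direction rests on 1 fullerene sample, the dye term of slide 2 on Graphite 13 and Graphite 14, and was not tested. Mvd gave 8.89, 8.68, 8.82 and 8.55 in fullerene lungs, against 9.27, 9.19 and 9.04 in Ctrl lungs, a change of -0.45 ± 0.17 (SE; adjusted p = 0.31). Dhcr7 gave 7.88, 7.76, 7.59 and 7.66 in fullerene lungs, against 8.24, 8.19 and 8.00 in Ctrl lungs, with a change of -0.38 ± 0.14 (SE; adjusted p = 0.285). At an unadjusted p under 0.05, 11 of the 31 genes passed, against 12.1% of all genes. Abca1 lay on the other side and gave 11.16, 11.05, 10.74 and 11.14 in fullerene lungs, against 10.45, 10.61 and 10.79 in Ctrl lungs, with a change of 0.40 (adjusted p = 0.25), which did not pass.

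After BayTubes, Acaca fell and no other gene of the 31 passed, where 3.18% of all genes were called (1.02% lower). Acaca gave 12.10, 12.10, 11.99 and 12.36 in BayTubes lungs, against 12.63, 12.42 and 12.73 in Ctrl lungs, without overlap. The change was -0.40 ± 0.10 (SE; adjusted p = 0.0373), and the 3 other spots named for Acaca gave changes from -0.46 to -0.32. The call was lost in 6 of 7 fits that left out 1 sample, all but the fit without BayTubes 20. It was also lost with array as a fixed term, with array ignored and with no dye term, whereas a fit of BayTubes and Ctrl alone called 6 of the 31 genes (1 higher, 5 lower), against 14.6% of all genes. In the same lungs 8 of 9 markers of dividing cells rose, and their part in the result was not tested. Insig1 gave 7.80, 7.76, 7.75 and 7.55 in BayTubes lungs, against 8.16, 8.21 and 7.99 in Ctrl lungs, also without overlap, with a change of -0.42 (adjusted p = 0.108).

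No gene of the 31 passed after tCNT, SES or Graphite by limma. At an unadjusted p under 0.05 the counts were 3 after tCNT, 1 after SES and 5 after Graphite, against 9.3%, 4.52% and 20.5% of all genes. At the adjusted threshold 0.708%, 0% and 1.13% of all genes were called in those comparisons. The gene nearest the threshold was Tm7sf2 after Graphite, at 10.60, 10.69, 10.44 and 10.45 in Graphite lungs, against 10.04, 9.89 and 10.25 in Ctrl lungs. Its groups did not overlap, and the change was 0.51 ± 0.13 (SE; adjusted p = 0.0542). Without Graphite 15, 1 gene of the 31 was called, and it was higher. For the tangled nanotubes, Sqle gave 11.05, 11.42 and 11.44 in tCNT lungs, against 11.17, 10.62 and 11.19 in Ctrl lungs, with a change of 0.39 (95% interval 0.02 to 0.77), so a change as large as that of rCNT was within the interval. Mvd had a change of -0.07 after tCNT (95% interval -0.45 to 0.30) and Abcg1 one of 0.05 (95% interval -0.29 to 0.39).

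**Figure D3:**
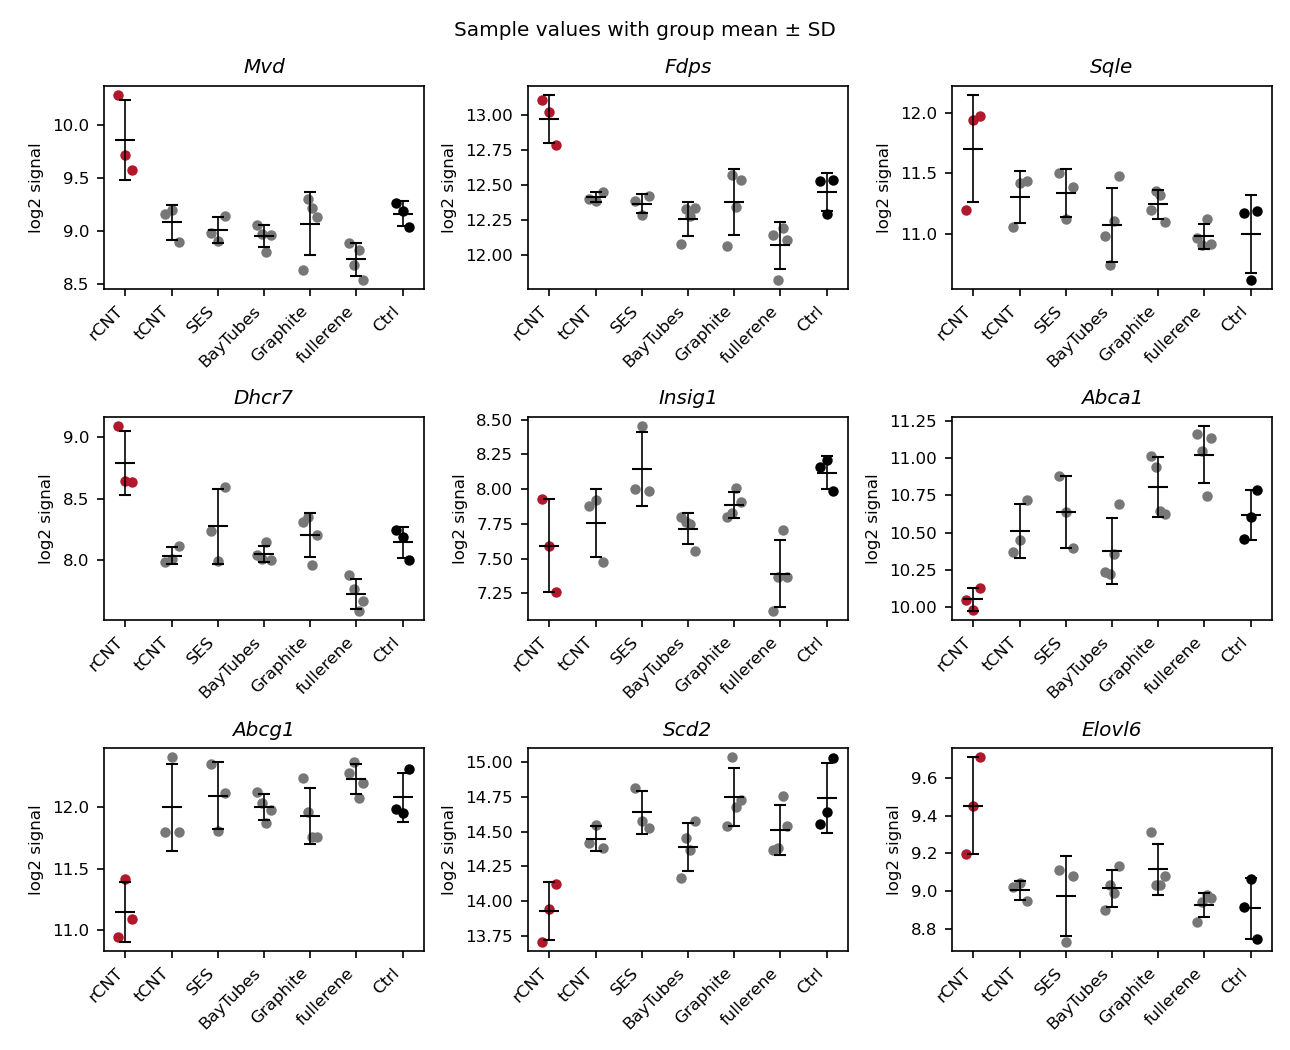
Log2 signal of 9 genes in each sample (points) of the 7 groups, with the group mean and standard deviation (bars), rCNT in red and Ctrl in black at the right. For Mvd, Fdps and Dhcr7 the 3 rCNT points lie above all points of the other groups, and for Abca1, Abcg1 and Scd2 below them.

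Set against each other material, the rCNT lungs kept 6 of these differences throughout. Mvd, Fdps, Dhcr7 and Elovl6 were higher, and Abcg1 and Scd2 lower, in rCNT lungs than in each of the other 5 materials (limma, adjusted p under 0.05 in all 5 comparisons, which share the 3 rCNT samples). Abca1 was lower against 4 of 5, all but BayTubes, where its change was -0.38 (adjusted p = 0.0629). Sqle, Nsdhl and Hsd17b7 were higher against 3 of 5. In all, 18 of the 31 genes were called against at least 1 material, none of them in both directions, and 13 against none. Of the 12 genes called against Ctrl, 11 were also called against at least 1 material, and Tm7sf2 was not. No share of all genes was computed for calls against all 5 or at least 1 material, and shares for each comparison follow below. With array as a fixed term none of the 31 genes was called against tCNT, SES or BayTubes, where 0.0726%, 0.509% and 0.278% of all genes were. In that fit 7 were called against Graphite and 8 against fullerene, where 16.9% and 7.49% of all genes were. Leaving out 1 sample ended the call of Elovl6 against tCNT in 5 of 6 fits and that of Scd2 against BayTubes in 5 of 7.

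Against tCNT, 8 genes were called, 5 higher and 3 lower in rCNT lungs, where 8.84% of all genes were called, 5.71% higher and 3.14% lower. Dhcr7 gave 9.09, 8.65 and 8.63 in rCNT lungs, against 7.98, 8.01 and 8.11 in tCNT lungs, a change of 0.67 ± 0.14 (SE; adjusted p = 0.00726). Abcg1 gave 10.94, 11.42 and 11.09 in rCNT lungs, against 11.80, 12.41 and 11.79 in tCNT lungs, a change of -0.83 ± 0.16 (SE; adjusted p = 0.00314). The groups of both genes did not overlap. The others were Mvd, Fdps, Nsdhl and Elovl6, higher, and Abca1 and Scd2, lower. Without the array of rCNT 4 and Graphite 16 the count against tCNT was 3: Dhcr7, Elovl6 and Abcg1. It was 1 without tCNT 7, 4 without tCNT 8 or rCNT 4, and 5 without tCNT 9 or rCNT 6, and Abcg1 was called in each of those fits.

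Against SES, 8 genes were called (4 higher, 4 lower), where 17.1% of all genes were called (10% higher, 7.02% lower), and Insig1 was among the lower ones with a change of -0.48 ± 0.16 (SE; adjusted p = 0.0483). It gave 7.93, 7.59 and 7.26 in rCNT lungs, against 8.00, 8.45 and 7.98 in SES lungs, without overlap. The count against SES was 4 without SES 11. Against BayTubes, 9 genes were called (7 higher, 2 lower), where 13.1% of all genes were called (8% higher, 5.05% lower), and 4 were called without BayTubes 19. Against Graphite, 11 were called (7 higher, 4 lower), where 26.1% were (12.8% higher, 13.3% lower), and these included Srebf2, with a change of 0.46 ± 0.17 (SE; adjusted p = 0.0495), and Insig2, with one of -0.32 ± 0.10 (SE; adjusted p = 0.0214). Without the array of rCNT 4 and Graphite 16, those 2 changes were 0.21 and -0.16 and did not pass.

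Against fullerene, 15 genes were called (11 higher, 4 lower), where 23.1% of all genes were called, 12% higher and 11.1% lower. Mvd gave 10.28, 9.72 and 9.57 in rCNT lungs, against 8.89, 8.68, 8.82 and 8.55 in fullerene lungs, a change of 1.05 ± 0.16 (SE; adjusted p = 8.46e-05). Abca1 gave 10.04, 9.98 and 10.13 in rCNT lungs, against 11.16, 11.05, 10.74 and 11.14 in fullerene lungs, a change of -0.99 ± 0.12 (SE; adjusted p = 1.23e-05). In both genes the groups did not overlap. Idi1, Fdft1, Msmo1 and Fasn were called higher, and Scap lower, in this comparison though not against Ctrl, with changes of 0.66, 0.38, 0.49, 0.43 and -0.27. Insig1, low in both groups, had a change of 0.22 between them (95% interval -0.08 to 0.51).

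**Figure D4:**
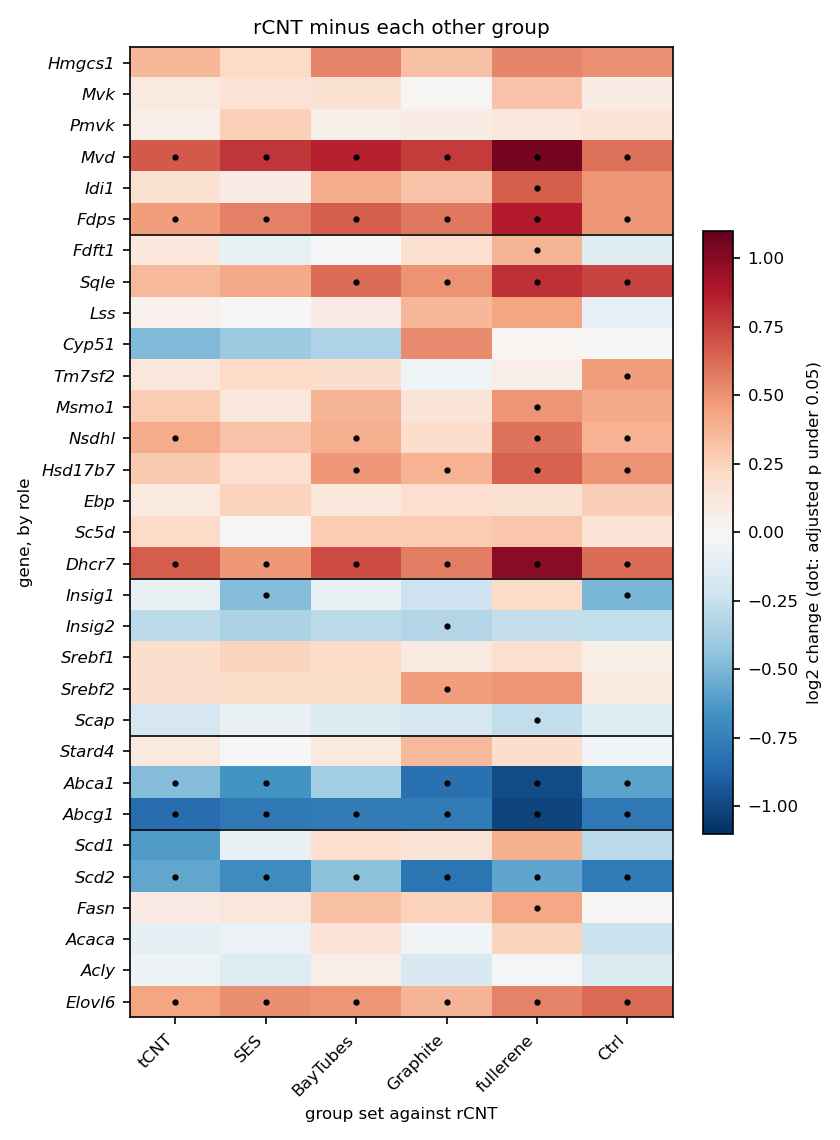
Fitted log2 change of rCNT minus each other group for 31 genes, by role, with dots on changes past the threshold of 0.05 on the adjusted p. Rows of Mvd, Fdps, Dhcr7, Elovl6, Abcg1 and Scd2 carry a dot in all 6 columns.

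A moderated F test over the 7 groups called 14 of the 31 genes, against 17.8% of all genes, but 8 when array was ignored and 2 when it was a fixed term. The 14 were Mvd, Idi1, Fdps, Sqle, Nsdhl, Hsd17b7, Dhcr7, Insig1, Abca1, Abcg1, Scd1, Scd2, Acaca and Elovl6. The smallest adjusted p was that of Abca1 (0.000148, limma), whose group means ran from 10.05 ± 0.07 in rCNT and 10.38 ± 0.22 in BayTubes through 10.51 ± 0.18 in tCNT, 10.64 ± 0.24 in SES and 10.81 ± 0.20 in Graphite up to 11.02 ± 0.19 in fullerene, with 10.62 ± 0.17 in Ctrl (SD, n = 3 or 4). The middle groups of that order overlapped sample by sample, and rCNT lay below every sample of the others.

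Other genes of the same pathways, from 4 further lists, gave 15 calls of 65 genes tested after rCNT, 6 higher and 9 lower. That is 23.1% of the 65, close to the 21.8% of all genes. Among 18 genes of liver X receptor signalling and sterol storage, 2 rose and 3 fell after rCNT. Ch25h, which makes an oxysterol that restrains SREBP processing and activates liver X receptors, averaged 11.53 ± 0.48 in rCNT lungs and 9.02 ± 0.12 in Ctrl lungs (SD, n = 3 each), a change of 2.28 ± 0.27 (SE; adjusted p = 9.65e-06). Cyp7b1, which breaks such oxysterols down, averaged 10.23 ± 0.41 in rCNT lungs and 8.37 ± 0.19 in Ctrl lungs (SD, n = 3 each), a change of 1.88 ± 0.21 (SE; adjusted p = 4.62e-06). Both exceeded the change of any of the 31 genes. Mylip, a liver X receptor target that marks lipoprotein receptors for degradation, fell with a change of -0.73, and Nceh1, a cholesterol ester hydrolase, with one of -0.36.

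Among 23 further genes of fatty acid synthesis and activation, 1 rose and 5 fell after rCNT, with Lpin1 and Mlxipl among those that fell (changes of -0.87 and -0.49). Among 14 genes of a mixed list of other sterol sensing and SREBP processing genes, Hdlbp and Erlin1 rose with changes of 0.58 and 0.39. Among 10 genes of the isoprenoid and dolichol branch, Nus1 rose and Fnta fell, with changes of 0.55 and -0.36. Outside rCNT, Dgat2, which makes triglycerides, rose after BayTubes (0.68 ± 0.12, SE) and after fullerene (0.67 ± 0.14, SE). Acacb, the second acetyl-CoA carboxylase, fell after BayTubes (-0.58 ± 0.12, SE), beside Acaca. After BayTubes the 4 lists gave 3 higher and 2 lower of 65 genes (7.69%), against 3.18% of all genes. After Graphite 1 was lower (1.54%, against 1.13% of all) and after fullerene 1 was higher (1.54%, against 0.26%). After tCNT and SES none was called, against 0.708% and 0% of all genes.

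Markers of other cell types were also called in the rCNT lungs by the same tests, where 21.8% of all genes were called (12.4% higher and 9.41% lower). All 9 markers of dividing cells rose, and their mean log2 signal ran from 10.30 to 10.53 in rCNT lungs, against 7.81 to 8.13 in Ctrl lungs. Of 8 markers of recruited monocytes and macrophages, 4 rose and 2 fell, with a mean signal of 12.01 to 12.06 in rCNT lungs, against 10.98 to 11.09 in Ctrl lungs. Endothelial markers went the other way, with 7 of 10 lower and a mean of 12.64 to 12.91 in rCNT lungs, against 13.39 to 13.52 in Ctrl lungs. Of the club cell markers 2 rose and 3 fell of 9, and of neutrophil markers 3 rose and 1 fell of 9. Of fat cell markers 1 rose and 1 fell of 9, and of heart muscle markers 1 fell of 10, counts near or below the share of all genes. None of the listed markers was at 0, and 1 fat cell marker, Lep, did not pass the filter. The part of these shifts in the sterol results was not tested.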

How the data were processed

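Whole-lung RNA of 24 pools was measured on 2-colour Agilent arrays in which each dye held a sample of its own. The authors deposited 1 log2 signal per spot, and the submitters' processing notes name Agilent Feature Extraction and limma but no settings. Ranked from low to high, the values of 2 samples lie within 0.0856 of each other, as after quantile normalization, so a sample's total signal carries no information. Of 62976 spots, 31465 were named through the platform annotation and RefSeq accessions. Depth has no counterpart on arrays, and 3 or 4 samples a group limit the precision.

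A gene was its spot with the highest mean over the 24 samples and was kept if above a sample's 40th percentile in at least 3 samples. The fit used limma 3.58.1 in R 4.3.3 with group and dye as terms and array as a random block (correlation 0.40), over all 24 samples, and Benjamini-Hochberg adjustment over 16519 genes. A two-sided adjusted p under 0.05 counts as a change, and group means and SDs are of the deposited values, while changes are corrected for dye. The fit was tested on simulated data. The 32 genes, role groups, pathway and marker lists were chosen with earlier results of these data known. All 32 may be named, and from a further list at most the 4 genes past the threshold with the smallest p in a comparison. Alternatives concerned dye, array, slide, filter, normalization, spot choice, variance prior, samples and threshold. The labels do not say that pools were independent cages or exposures, so p-values measure the spread between these pools.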

Additional observations from a re-analysis of the deposited data

Results flagged for a closer look

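In the groups of 4 samples, each of the 31 genes was examined for 1 sample standing far from the other 3, by the gap to its neighbour over the range of the group. Of 93 gene and group pairs, 7 passed Dixon's 95% critical value, and chance flags about 1 in 20. In BayTubes 20, Hmgcs1 was far above the other 3 BayTubes samples at a log2 signal of 13.03, as was Pmvk at 13.09. In BayTubes 19, Lss stood above the others at 8.46. In Graphite 13, Pmvk stood below the other Graphite samples at 12.42 and Hsd17b7 above them at 8.37. In fullerene 21, Tm7sf2 stood below the others at 10.26, and in fullerene 23, Scd1 stood below them at 13.81. None of these 7 belongs to a gene and group called against Ctrl.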

How the results depend on the processing

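No paired analysis was possible because the groups share no sample numbers, so replicate numbers pair nothing. Arrays do pair samples of different groups, and array was a random block and, as an alternative, a fixed term. Counts below are of the 31 genes called. With array as a fixed term the counts were 0 for rCNT against Ctrl, tCNT, SES and BayTubes. Of all genes, 6.5%, 0.0726%, 0.509% and 0.278% were called there. They were also 0 for BayTubes and fullerene against Ctrl (0.369% and 0.00605% of all genes). For rCNT they were 7 against Graphite (16.9% of all genes) and 8 against fullerene (7.49%), and the F test gave 2. Fits of the groups compared alone used no block where fewer than 2 arrays were shared. There rCNT gave 1 against Ctrl, 0 against tCNT, 1 against SES, 1 against BayTubes, 3 against Graphite and 6 against fullerene. The shares of all genes, in that order, were 6.16%, 0.333%, 3.44%, 1.92%, 5.55% and 7.28%. BayTubes against Ctrl gave 6 (1 higher, 5 lower; 14.6% of all genes) and fullerene against Ctrl 0 (0.0787%). Adding a 1.5-fold minimum gave, for rCNT, 7 against Ctrl, 3 against tCNT, 4 against SES, 5 against BayTubes, 4 against Graphite and 9 against fullerene, and 0 for BayTubes against Ctrl. Ignoring array gave 7 for rCNT against Graphite, 8 in the F test and 0 for BayTubes and fullerene against Ctrl. BayTubes against Ctrl was also 0 with no dye term or with the mean of all spots, and 2 with slide as a term. Fullerene against Ctrl was also 0 with no filter or with a trended, robust prior. Graphite against Ctrl was 1 at adjusted p under 0.1, with slide as a term or with a 60th percentile filter. rCNT against tCNT was 3 without the array of rCNT 4 and Graphite 16. Leaving out 1 sample gave 7 to 12 for rCNT against Ctrl, 1 to 7 against tCNT, 4 to 8 against SES, 4 to 10 against BayTubes, 8 to 13 against Graphite and 11 to 15 against fullerene, 0 to 2 for BayTubes, 0 to 1 for Graphite and 0 to 0 for fullerene against Ctrl, and 10 to 17 in the F test. The causes were not tested. Of 249 alternative counts, 189 were within 1.5 times the main count. No called change turned its direction in those settings. Slides 1 and 2 held 1 rCNT sample each, beside 1 and 2 Ctrl samples, so directions within a slide rest on single samples and were not tested. They matched the full fit for all 14 changes against Ctrl on both slides, for 50 of 51 of rCNT against another material on slide 1 and for 43 of 43 on slide 2. The exception was Msmo1 against fullerene, at -0.13 within slide 1. These changes were picked by the full fit, which holds the same samples, so a match was likely beforehand and is no separate support. On slide 2 both Ctrl samples were in dye cy3 and the rCNT, BayTubes and fullerene samples in cy5. Its dye term therefore rested on Graphite 13 and Graphite 14.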
